A study of Mus musculus with 8 samples.

Results

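Lymph node cells of immunized B10.BR mice at day 28 (2 arrays) were compared with lymph node cells of naive B10.BR mice (3 arrays), which makes 5 of the 8 arrays of the series. The other 3 arrays, from day 7 after immunization, shared the fit and are given beside the results. B10.BR is an inbred strain, and the labels name no further allele, treatment or age for any group. The lymph node was made into single cells that were separated by flow cytometry, and the RNA was hybridised to Affymetrix mouse arrays. Neither the immunogen nor the population sorted is named in the labels, which also do not say whether replicates were separate animals or pools. The p-values therefore measure the spread between these arrays, which may be technical. All probe sets other than the array's own controls entered the description (22626), of which 13042 were tested. Genes of T cells were set apart from genes of other cell types by 24 lists holding 601 genes.

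Lymph nodes hold T cells, B cells and smaller numbers of dendritic cells and macrophages. A naive T cell enters the node through the chemokine receptor Ccr7 and keeps a resting programme that includes the transcription factor Lef1. After immunization, responding T cells divide, and some become follicular helper cells, which carry Cxcr5 and Pdcd1 and help B cells in the follicle. Weeks later the remaining antigen-experienced cells keep surface and cytoskeletal genes such as Cd44 and S100a4. B cells are recognised by a different set, among them the antigen receptor chains Cd79a and Cd79b and the surface protein Ms4a1. B cells, dendritic cells and macrophages present peptides on MHC class II molecules, which mouse T cells make little of.

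The deposited value is a linear ratio, read here, from the distribution of the values, as an array's level over that probe set's own median across all 8 arrays, with a shared floor in place of low medians. Values below are log2 of that ratio, so a value of 1 marks a doubling over the probe set's own reference, and levels of different genes cannot be set against each other. A difference near the floor understates the change in RNA. The medians of the 18 hybridisation spike-in control probe sets, which are added to each sample at fixed amounts, were low on naive replicate 1 (-1.16) and high on the other naive arrays (0.85 and 0.66) and on both day 28 arrays (1.41 and 0.64). The 3 day 7 arrays lay between -1.70 and -1.03. The sex of the animals is not given in the labels, and the Y-linked gene Eif2s3y differed within groups, at 2.87, -0.04 and 0.24 on the naive arrays and 3.70 and -0.05 on the day 28 arrays. Xist, the RNA of the inactive X chromosome, read -5.25, -5.58 and -2.17 on the naive arrays, between 0.98 and 1.84 at day 7, and -5.29 and 0.83 at day 28 (1 of its 3 probe sets), so that it split the day 28 arrays and set day 7 apart from naive. Signs of RNA quality also differed, as the 3′ minus 5′ log2 ratio of Gapdh was -1.09 on day 28 replicate 1 and 0.02 on replicate 2, against 0.17 to 0.57 on the naive arrays, and that of beta-actin was -1.08 and -0.05. The part of the sex-linked genes and of RNA quality in the results was not tested. With a term for low against high spike-in signal, limma called 57 probe sets (47 higher and 10 lower). This term amounts here to leaving out naive replicate 1. Of the 57, 35 were among those reported. The 42 probe sets called below kept their sign among the arrays of high spike-in signal. That sign was fixed in advance, since their naive and day 28 arrays did not overlap.

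At day 28, B cell and MHC class II genes were higher than in naive samples, by 5.43-fold to 195-fold among the probe sets that passed the test. With limma's moderated test over all 8 arrays and a Benjamini-Hochberg adjusted p under 0.05, 42 of 13042 probe sets differed between day 28 and naive, which is 0.322% of those tested. Of these, 35 were higher at day 28 (0.268%) and 7 lower (0.0537%). The filter asked for a ratio of at least 1 on 2 or more arrays. Of the higher ones, 3 (Blnk, Cd8b1 and Lyl1) reached it on the 2 day 28 arrays alone. For these 3 the p-value is given from a fit without the filter. A further 6, among them Syk, Plcg2, Fcer2a and a probe set of Irf8, reached it on just 1 array besides. These 6 also needed the day 28 arrays to pass the filter, and their p-values come from the filtered fit. On all 42, both day 28 arrays lay outside the range of the 3 naive arrays. The higher probe sets belonged to 32 named genes, 29 of them by the probe set that represents the gene. H2-Ab1, Irf8 and Scd1 were called on another of their probe sets only. Of the 32, 26 stood in the B cell or class II lists, with these 3 genes among them. The CD8 list held 1, the myeloid lists 2 and the T cell lists 2. Plac8 was counted under both B cell and myeloid genes, and Irf8 under B cell and dendritic cell genes. The lists were chosen with earlier results of these data known, so these counts are a description. In bulk samples, a change in the number of cells of a type and a change in RNA per cell cannot be told apart.

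The size of these differences was steadier than the number that passed. Without day 28 replicate 1 only 2 probe sets passed, without naive replicate 3 there were 7, and without naive replicate 2 there were 20. Without naive replicate 1 the count was 57 and without day 28 replicate 2 it was 49. A fit on the naive and day 28 arrays alone called 0 probe sets, with 613 at an unadjusted p under 0.05. In these fits the median absolute difference of the 42 lay between 3.66 and 4.37 on the log2 scale. The fit on the naive and day 28 arrays alone keeps the same group means, so its sizes could not differ. The sign of the 42 could not change either, since their naive and day 28 arrays did not overlap. Without any test, both day 28 arrays lay above all naive arrays in 1012 probe sets (7.76%) and below them in 1289 (9.88%). Among those, 149 were higher by at least 2 on the log2 scale (1.14%) and 64 lower by at least 2 (0.491%).

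Among chains and surface partners of the B cell antigen receptor, Cd79b, Ms4a1 and Cd22 were higher at day 28. Cd79b, the signalling chain that pairs with Cd79a beneath surface immunoglobulin, read -0.13, -0.09 and 0.63 in naive samples and 6.61 and 5.84 at day 28 (log2 ratios). Both day 28 arrays lay far above every naive array, and the 3 day 7 arrays, from -0.83 to 0.09, lay at the naive level. The difference from naive was 6.09 ± 0.43 (SE), or 68.3-fold, with a limma adjusted p of 0.00428. Its partner Cd79a read -0.00, 0.00 and -0.41 in naive samples and 1.81 and 2.75 at day 28. That difference of 2.42 ± 0.36 did not overlap but missed the threshold (limma adjusted p = 0.0531). Ms4a1, which encodes CD20, read -0.09, -1.77 and -0.24 in naive samples and 6.87 and 5.20 at day 28. It rose by 6.74 ± 0.64 (limma adjusted p = 0.00936), and its other tested probe set differed by 1.88 without passing. Cd22, a lectin that dampens receptor signalling, read -1.56, -3.72 and -2.54 against 3.27 and 2.62. It rose by 5.55 ± 0.64 (limma adjusted p = 0.0162), and its day 7 arrays, between -0.38 and 0.71, lay between the naive and day 28 arrays.

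Genes that carry the receptor's signal inward rose as well. Blnk, the adaptor that links the receptor to its downstream enzymes, read -1.45, -1.49 and -1.24 in naive samples and 3.27 and 3.69 at day 28, with little spread in either group. The rise was 4.87 ± 0.31 (29.2-fold, limma adjusted p = 0.00548 without the filter). The kinase Syk read 0.26, -0.91 and -0.70 in naive samples and 4.65 and 3.02 at day 28, a rise of 4.29 ± 0.55 (limma adjusted p = 0.0274). Its other tested probe set differed by 1.82 without passing. The phospholipase Plcg2 read -0.35, -0.43 and -0.64 against 3.0 and 3.57, a rise of 3.76 ± 0.34 (limma adjusted p = 0.00936). In all 3 genes the day 28 values given here by array cleared the naive ones by more than 2 on the log2 scale. Btk, the kinase lost in X-linked agammaglobulinaemia, and the Src family kinase Blk also lay above all naive arrays, by 1.70 and 3.05, but did not pass (limma adjusted p = 0.17 and 0.097).

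Surface proteins of mature follicular B cells followed the same order of arrays. Fcer2a, the low-affinity IgE receptor, read 0.70, -0.60 and -0.68 in naive samples and 4.95 and 3.42 at day 28, a rise of 4.38 ± 0.57. Tnfrsf13c, the receptor for the survival factor BAFF, read -0.30, 0.12 and 0.33 against 4.95 and 3.76, a rise of 4.31 ± 0.58. Cr2, the complement receptor CD21, read 0.04, -0.13 and -0.19 against 3.90 and 2.65, a rise of 3.37 ± 0.40. None of these overlapped with naive samples, and day 28 replicate 1 was the higher array each time. Ly6d, a surface marker of committed B lineage cells, read -0.16, -0.53 and -0.75 against 6.85 and 3.90, a rise of 5.86 ± 0.75 with the day 28 arrays well apart (limma adjusted p = 0.0262). Also past the threshold in this list were Cd24a (higher by 4.17), Swap70 (3.94), Ctsh (4.44), Plac8 (5.18), Cd83 (4.18) and the costimulatory receptor Cd40 (2.44). Of the 43 genes of the B cell surface and signalling list on the array, 39 were tested and 16 were higher, against 0.371% of all 7825 genes tested, and 0 were lower. Both day 28 arrays lay above all naive arrays in 29 of the 43 (67.4%) and below them in 2 (4.65%). Over all 12393 genes on the array these shares were 6.88% and 11%. The median difference was 3.05 over the 43, against -0.03 over all genes on the array. Fcgr2b (4.01), Ly86 (4.83) and Cd72 (3.70) were as far from naive as the genes called but missed the threshold, with limma adjusted p-values of 0.18, 0.071 and 0.079.

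**Figure D1:**
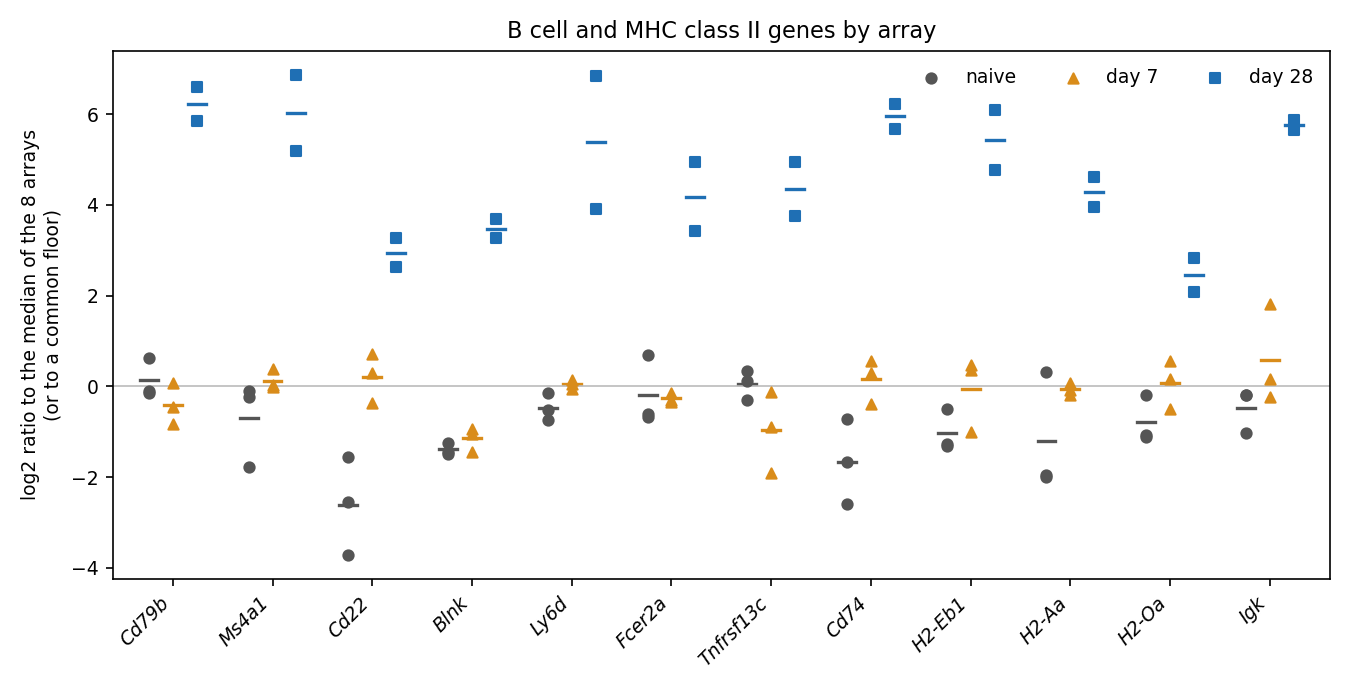
Log2 ratio (vertical axis, relative to each probe set's own reference) of 12 B cell and class II genes, with points for single arrays and bars for group means of naive (n = 3), day 7 (n = 3) and day 28 (n = 2). Both day 28 arrays of each gene lie above every naive array, while most day 7 values lie near 0.

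Regulators of the B lineage changed in fewer members. Mef2c, a transcription factor used in B cell proliferation, read 0.39, -0.50 and -0.69 in naive samples and 4.10 and 3.14 at day 28, a rise of 3.89 ± 0.44 (limma adjusted p = 0.0161), while a further probe set of the gene, 1451507_at, differed by only 0.15. Spib, an Ets factor of B cells and plasmacytoid dendritic cells, read -0.49, 0.69 and 0.16 against 2.73 and 3.07, a rise of 2.78 ± 0.41 that lay at the edge of the threshold (limma adjusted p = 0.0496). Irf8, which acts in B cells, dendritic cells and macrophages, rose by 3.83 on probe set 1416714_at but differed by 0.78 on the probe set that represents the gene (limma adjusted p = 0.00954 and 0.884). Of 20 such regulators on the array, 17 were tested and 2 were higher. All naive arrays were exceeded in 9 (45%), against 6.88% of all genes on the array. Pax5 was below the filter, and Ebf1, at 0.30 and 0.46 on the day 28 arrays, lay within the naive range of -0.13 to 0.75. The median difference over the 20 was 0.78.

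Immunoglobulin genes were represented by few probe sets. Igk, the kappa light chain, read -0.18, -0.20 and -1.03 in naive samples and 5.64 and 5.87 at day 28, a rise of 6.23 ± 0.61 (limma adjusted p = 0.00954). The heavy chain segment Ighv14-2 read -0.29, -0.30 and 0.31 against 5.55 and 4.51, a rise of 5.13 ± 0.44 (limma adjusted p = 0.00838). Both belong to large families of similar segments, so the segment a probe set measures is uncertain. In the list of immunoglobulin, germinal centre and plasma cell genes, Igk was the 1 gene called of 8 tested and 10 on the array, and the median difference was -0.01. Jchain, the joining chain of secreted IgM and IgA, read -0.81, -1.63 and -0.92 in naive samples and 0.79 and -0.41 at day 28, and did not pass.

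Class II antigen presentation genes held the largest difference among the probe sets called. Cd74, the invariant chain that escorts class II molecules to the endosome, read -0.72, -2.58 and -1.67 on the naive arrays and 5.67 and 6.23 on the day 28 arrays, with day 7 values between -0.38 and 0.56. It rose by 7.61 ± 0.57, or 195-fold (limma adjusted p = 0.00428). The class II beta chain H2-Eb1 read -0.49, -1.31 and -1.28 in naive samples and 6.08 and 4.77 at day 28, a rise of 6.45 ± 0.59. The alpha chain H2-Aa read 0.32, -1.96 and -1.99 against 4.62 and 3.95 on the probe set that represents it, a rise of 5.49 ± 0.69, and rose by 7.10 on its other probe set. H2-Oa, a chain of the nonclassical molecule that restrains peptide loading in B cells, read -0.19, -1.06 and -1.12 against 2.83 and 2.07, a rise of 3.24 ± 0.47. No day 28 value of these genes came within 2 log2 units of a naive one. H2-Ab1, the partner of H2-Aa, rose by 4.49 on probe set 1450648_s_at but missed the threshold on its representing probe set, at 2.96 (limma adjusted p = 0.0149 and 0.0899). H2-DMa (2.17) and the thiol reductase Ifi30 (2.38) also lay above all naive arrays without passing. In all, 16 of the 17 class II and presentation genes on the array were tested, and 6 were higher and 0 lower. Of the 17, 11 lay above all naive arrays (64.7%, against 6.88% of all genes), and the median difference was 2.17.

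Promoters of 3 of these class II genes and that of Blnk are shown because their genes moved together at day 28 and because class II promoters are known for a shared module read by RFX, CREB and NF-Y proteins. They are RefSeq sequences of build GRCm38.p6, from 250 bases before to 50 bases after the annotated start, 5′ to 3′ on the strand of the gene. The positions are H2-Aa at chr17:34287774-34288073 (minus strand), H2-Eb1 at chr17:34305617-34305916 (plus strand), H2-Oa at chr17:34092129-34092428 (plus strand) and Blnk at chr19:40994172-40994471 (minus strand). The reference is of another strain with another H2 haplotype than B10.BR, so letters may differ in these mice. Capitals mark CTGATTGG, the core of the class II Y box, and GCAAC, part of the X box upstream of it, in the class II genes, and ATTTGCAT, the octamer bound by Oct proteins, in Blnk.
H2-Aa: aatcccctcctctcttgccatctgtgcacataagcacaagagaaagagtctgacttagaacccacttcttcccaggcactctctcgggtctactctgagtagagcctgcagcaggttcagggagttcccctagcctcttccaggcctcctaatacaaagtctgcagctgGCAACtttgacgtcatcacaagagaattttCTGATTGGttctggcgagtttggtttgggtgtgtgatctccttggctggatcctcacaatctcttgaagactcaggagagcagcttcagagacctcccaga
H2-Eb1: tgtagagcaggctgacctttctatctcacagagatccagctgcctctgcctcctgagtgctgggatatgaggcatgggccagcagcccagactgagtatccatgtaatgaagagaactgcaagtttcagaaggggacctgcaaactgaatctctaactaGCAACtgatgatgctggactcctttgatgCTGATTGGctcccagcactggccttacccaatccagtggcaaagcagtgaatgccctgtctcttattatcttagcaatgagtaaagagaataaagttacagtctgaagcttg
H2-Oa: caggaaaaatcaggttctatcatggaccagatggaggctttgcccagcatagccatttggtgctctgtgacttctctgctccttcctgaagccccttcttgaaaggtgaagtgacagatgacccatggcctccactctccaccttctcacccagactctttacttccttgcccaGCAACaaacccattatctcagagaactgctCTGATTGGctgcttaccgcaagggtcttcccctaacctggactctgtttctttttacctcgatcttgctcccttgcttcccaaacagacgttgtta
Blnk: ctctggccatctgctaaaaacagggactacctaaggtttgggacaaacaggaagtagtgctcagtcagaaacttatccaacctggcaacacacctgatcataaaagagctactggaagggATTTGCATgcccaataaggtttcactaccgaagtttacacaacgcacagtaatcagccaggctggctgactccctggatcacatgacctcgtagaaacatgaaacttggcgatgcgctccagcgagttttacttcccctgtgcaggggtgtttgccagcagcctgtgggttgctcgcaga
CTGATTGG starts 51 bases before the start of H2-Aa, 62 before that of H2-Eb1 and 46 before that of H2-Oa, and GCAAC starts 81, 91 and 76 bases before. The octamer starts 130 bases before the start of Blnk. Searched on both strands, CTGATTGG occurs in 1346 of the 32851 promoters of the table (4.1%) and ATTTGCAT in 570 (1.74%). On the gene's strand, GCAAC within 40 bases before CTGATTGG occurs in 21 (0.0639%). Of the 32 genes higher at day 28, 19 had a promoter in the table, and 6 of these held CTGATTGG (Fcer2a, H2-Aa, H2-Eb1, H2-Oa, Irf8 and Plac8) and 2 the octamer (Blnk and Ccr6). The motifs were picked after the sequences were seen, and a match is a description of letters, not of binding.

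Of the CD8 and cytotoxic genes, 1 was higher at day 28. Cd8b1, the beta chain of the CD8 coreceptor, read -0.13, -0.06 and -0.14 in naive samples and 4.07 and 3.10 at day 28. The naive arrays were almost identical and the day 7 arrays, from -0.44 to -0.13, lay at or below them, so that the high values were on the day 28 arrays alone. The rise was 3.70 ± 0.35, or 13-fold (limma adjusted p = 0.0199 without the filter). Cd8a, which is also made by some dendritic cells, read 0.00, -0.69 and -0.56 against 4.21 and 2.25, a difference of 3.65 ± 0.55 that missed the threshold (limma adjusted p = 0.058), and its other probe set, below the filter, differed by 0.026. Nkg7, a granule protein of cytotoxic cells, had another order of groups. It read -2.69, -3.73 and -3.37 in naive samples, 0.21, 1.72 and 0.45 at day 7 and 0.12 and -0.13 at day 28, a day 28 difference of 3.26 ± 0.52 (limma adjusted p = 0.0775). Cst7, an inhibitor of granule cathepsins, ran in the same order without passing at day 28, with a difference of 1.80. Of 19 CD8 and cytotoxic genes on the array, 14 were tested, and 1 was higher and 0 lower. Of the 19, 8 lay above all naive arrays (42.1%) and 1 below (5.26%), against 6.88% and 11% of all genes. The median difference was 0.44, or 0.19 without day 28 replicate 1. Gzmb read -0.33 and -0.34 on the day 28 arrays, within the naive range of -0.82 to -0.28, and Prf1 was below the filter.

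Of the 41 monocyte and macrophage genes on the array, 12 lay above all naive arrays at day 28 (29.3%) and 4 below (9.76%). Over all genes on the array these shares were 6.88% and 11%. Lyz2, the lysozyme of macrophages and neutrophils, read -0.49, -0.16 and -0.61 in naive samples and 5.43 and 2.19 at day 28, a difference of 4.23 ± 0.84 (limma adjusted p = 0.163). Lyz1 read -0.85, -2.13 and -2.07 against 3.47 and 1.77, a difference of 4.30 ± 0.78 (limma adjusted p = 0.122), and since both lysozymes are close copies their probe sets may share signal. Tyrobp, the DAP12 adaptor of myeloid and NK cells, read -0.33, -0.02 and -0.49 against 3.24 and 1.53, and the apolipoprotein Apoe -1.88, 0.07 and -0.08 against 4.08 and 1.14. None of these 4 passed the test, each was higher on replicate 1 than on replicate 2, and no day 28 value overlapped with a naive one. Plac8, which is also a B cell gene, was the 1 gene higher of 26 tested and 41 on the array in the monocyte and macrophage list, and the median difference over the 41 was 0.22, or 0.0068 without day 28 replicate 1. In 29 of the 41 genes day 28 replicate 1 was above replicate 2. Itgam and the dendritic cell integrin Itgax were below the filter, as were Cd14 and Cd68. Of the 18 dendritic cell genes, 5 lay above all naive arrays (27.8%) and 0 below. Their median difference was 0.05, with 9 tested and 0 called by limma. At an unadjusted p under 0.05, 3 were higher and 0 lower, a limit passed by 3.22% of all genes tested higher and 3.18% lower. Lists for neutrophils and mast cells, erythroid cells and platelets, and stroma and endothelium had medians of 0.00, 0.14 and -0.06 and 0 genes called by limma (0, 1 and 0 higher at an unadjusted p under 0.05).

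**Figure D2:**
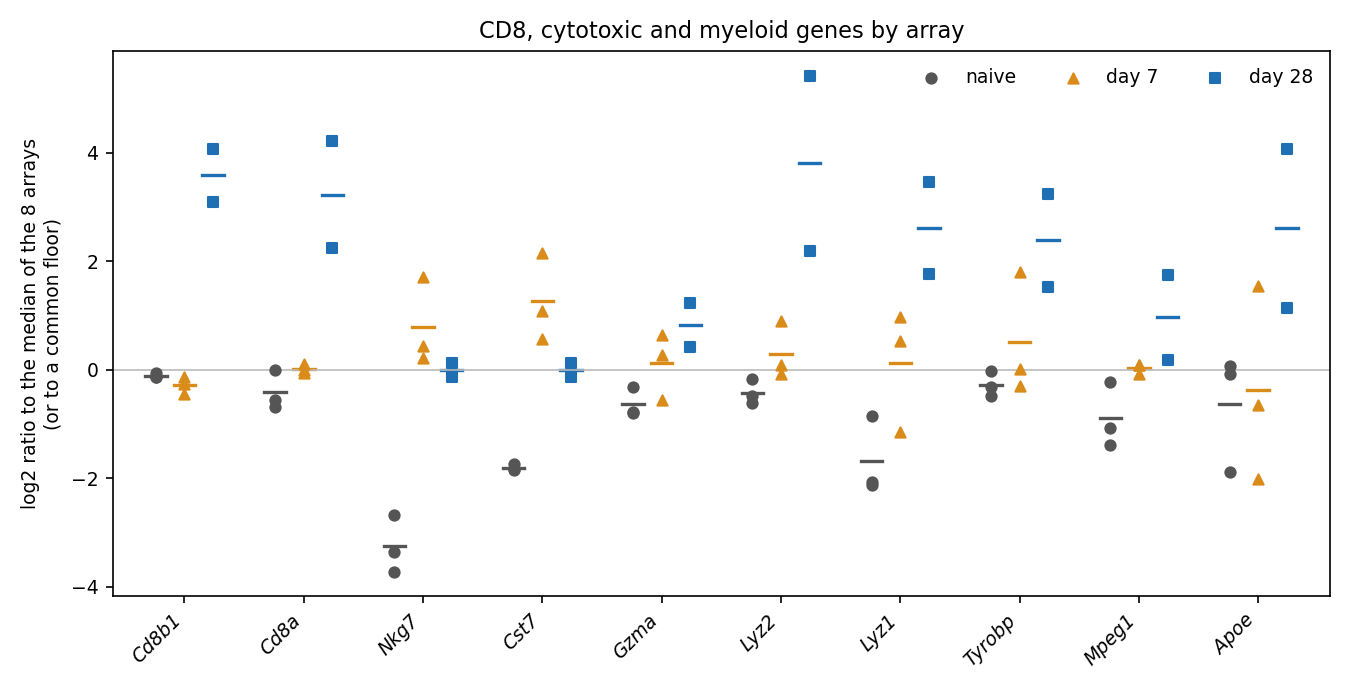
Log2 ratio (vertical axis) of 10 CD8, cytotoxic and myeloid genes, with points for single arrays and bars for group means of naive (n = 3), day 7 (n = 3) and day 28 (n = 2). For Cd8a, Lyz2, Lyz1, Tyrobp, Mpeg1 and Apoe the 2 day 28 points lie well apart, and Nkg7 and Cst7 are high at day 7 as well.

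Genes that mark T cells as such did not pass the test in either direction. In the list of T cell identity and receptor genes, 25 of 26 on the array were tested and 0 were called by limma, also at an unadjusted p under 0.05, and the median difference was -0.20, or from -0.35 to -0.00094 with 1 array left out. Cd3e, a chain of the receptor complex, read 0.10, 1.18 and -0.40 in naive samples and -2.43 and 2.68 at day 28, so that its day 28 arrays lay on either side of every naive array (difference -0.17 ± 1.35). Cd3d read -0.51, -0.03 and 0.69 against -0.57 and 0.03, and Cd3g -0.12, -0.43 and 0.92 against 0.11 and -0.23. Both overlapped with the naive arrays. Thy1, a surface glycoprotein of T cells, read 0.22, 1.76 and 1.35 against -0.38 and 0.58, a difference of -1.01 ± 0.51. The coreceptor Cd4 read 0.21, 1.31 and -2.32 against -2.43 and 0.42, a difference of -0.74 ± 1.14 with a spread that covers both directions. Bcl11b, a factor that maintains T cell identity, and the kinase Prkcq lay below all naive arrays, by 0.96 and 0.75 on the log2 scale, without passing. They were the 2 such genes of the 26 (7.69%), a share under the 11% of all genes on the array. Of the 26, 0 lay above all naive arrays.

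Of the genes of resting, naive T cells, Igfbp4, which encodes an insulin-like growth factor binding protein, was lower at day 28 on most of its probe sets. On 1423756_s_at it read 3.79, 2.92 and 2.95 in naive samples and 0.04 and -0.04 at day 28, while day 7 values lay from -4.43 to -4.15. The day 28 arrays were thus below all naive and above all day 7 arrays. It fell by 3.22 ± 0.36 against naive, or 9.34-fold (limma adjusted p = 0.0154), and stood 4.32 above day 7 (limma adjusted p = 0.00351), in a comparison that called 1.3% of probe sets. The probe sets 1437406_x_at and 1423757_x_at fell by 2.72 and 2.26 and passed, 1437405_a_at differed by -3.05 without passing, and 1421992_a_at, which represents the gene by rule, by -0.55.

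Ccr7 and Lef1 lay lower at day 28 with errors too wide for the threshold. Ccr7 read 0.75, 4.01 and 3.74 in naive samples and -0.76 and 0.50 at day 28, a difference of -2.97 ± 0.94 (limma adjusted p = 0.551), and at day 7 it read between -2.08 and -1.36. Lef1 read 0.88, 3.81 and 3.68 against -0.55 and -0.36, a difference of -3.25 ± 0.83 (limma adjusted p = 0.351), and at day 7 between -0.74 and -0.10. In both genes naive replicate 1, the naive array of low spike-in signal, was more than 2 log2 units below the other naive arrays. Il7r, the receptor for the survival cytokine IL-7, read 2.82, 1.03 and -0.26 against 0.22 and 0.55 and overlapped, while probe set 1448576_at read 2.70, 2.59 and 0.63 against 0.20 and -0.40, below all naive arrays (difference -2.07, limma adjusted p = 0.51). Btg1, which restrains proliferation, and Sorl1 lay above all naive arrays, by 2.36 and 2.13, without passing. Their other tested probe sets, 1437455_a_at and 1460390_at, differed by 1.14 and 0.09 and overlapped with naive. Over the 27 naive and resting genes on the array, 26 were tested, 0 were called by limma (2 higher and 2 lower at an unadjusted p under 0.05), and the median difference was -0.03. Of the 27, 3 lay below all naive arrays (11.1%) and 2 above (7.41%). These shares were close to the 11% and 6.88% of all genes on the array.

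Among activated and antigen-experienced T cell genes, S100a4, Cd44 and Cxcr3 had both day 28 arrays between the naive and day 7 arrays. Ccr6 lay above its day 7 values, and Ahnak and Anxa2 overlapped with theirs. The comparisons of day 7 and of day 28 with naive share the naive arrays, so both sets of values are only placed side by side. S100a4, a calcium-binding protein of effector and memory cells, read -2.31, -2.70 and -2.93 in naive samples, 2.19, 2.06 and 2.30 at day 7 and -0.35 and 0.28 at day 28. The 3 groups did not overlap, and each was narrower than 1 log2 unit. S100a4 rose by 2.61 ± 0.34 at day 28 against naive (6.12-fold, limma adjusted p = 0.0274) and was 2.22 below day 7 on the log2 scale (limma adjusted p = 0.0302). Ccr6, a chemokine receptor of Th17, memory and also B cells, read -2.37, -2.44 and -3.74 in naive samples and 1.36 and 1.66 at day 28. It rose by 4.36 ± 0.63 (20.5-fold, limma adjusted p = 0.0462), and its day 7 values, from -0.94 to 0.81, lay below the day 28 ones. Ccr6 stands in T cell lists here, and its source among the cells sorted cannot be told apart.

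The remaining activation genes were described by values, since none passed. Cd44, the hyaluronan receptor that marks antigen-experienced cells, read -0.84, -2.65 and -2.72 in naive samples, between 1.73 and 3.15 at day 7 and -0.33 and 0.27 at day 28, a day 28 difference of 2.04 ± 0.67 (limma adjusted p = 0.567), while its other probe set differed by -0.40. Cxcr3, a chemokine receptor of Th1 and effector cells, read -1.80, -1.81 and -0.98 in naive samples, between 2.93 and 3.76 at day 7 and -0.37 and 0.29 at day 28. Its day 28 arrays were above all naive and below all day 7 arrays (difference from naive 1.49 ± 0.44, limma adjusted p = 0.479). Ahnak, a large scaffold protein, read -0.91, -2.65 and -3.21 against 0.58 and 1.74, a difference of 3.42 ± 0.71, and Anxa2 read -3.06, -1.55 and -2.80 against -0.85 and 0.97. Neither overlapped with naive samples. At day 7 Ahnak read between -0.11 and 0.87 and Anxa2 between 0.53 and 2.33, so both overlapped with day 28. Over the list, 33 of 35 genes on the array were tested, and 2 were higher (Ccr6 and S100a4) and 0 lower. Of the 35, 15 lay above all naive arrays (42.9%) and 2 below (5.71%), against 6.88% and 11% of all genes. The median difference was 0.99 at day 28 and 2.27 at day 7.

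Of 21 follicular helper genes on the array, 6 lay above all naive arrays at day 28 (28.6%) and 0 below. Over all genes on the array these shares were 6.88% and 11%. Cxcr5, the receptor that draws T and B cells into follicles, read -3.36, -3.38 and -3.20 in naive samples, 2.38, -0.91 and 1.63 at day 7 and 0.55 and 0.65 at day 28. The naive and day 28 arrays each lay close together and 3.92 ± 0.84 apart, and the test was not passed (limma adjusted p = 0.203). Mature B cells also carry Cxcr5. Pdcd1, the inhibitory receptor PD-1, read -2.09, -1.95 and -2.15 in naive samples and -0.45 and 0.34 at day 28, a difference of 2.01 ± 0.74 (limma adjusted p = 0.674). Bcl6, the master regulator of these cells, read 0.07, -1.68 and -1.01 against -0.64 and -0.07 and overlapped, with day 7 values between 1.91 and 3.10. Icos read -1.40, -1.63 and -1.29 against -2.13 and 0.67, while its other tested probe set, at 0.42 and 0.45 at day 28, lay above all naive arrays by 1.94 without passing. Plagl1, at 3.97 to 4.39 on the day 7 arrays, was at -0.80 and -0.71 at day 28, and its day 28 mean lay within 0.04 of the naive mean. Of the 21, 17 were tested, 0 were called by limma (5 higher and 0 lower at an unadjusted p under 0.05), and the median difference was 0.36 at day 28 and 2.77 at day 7.

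**Figure D3:**
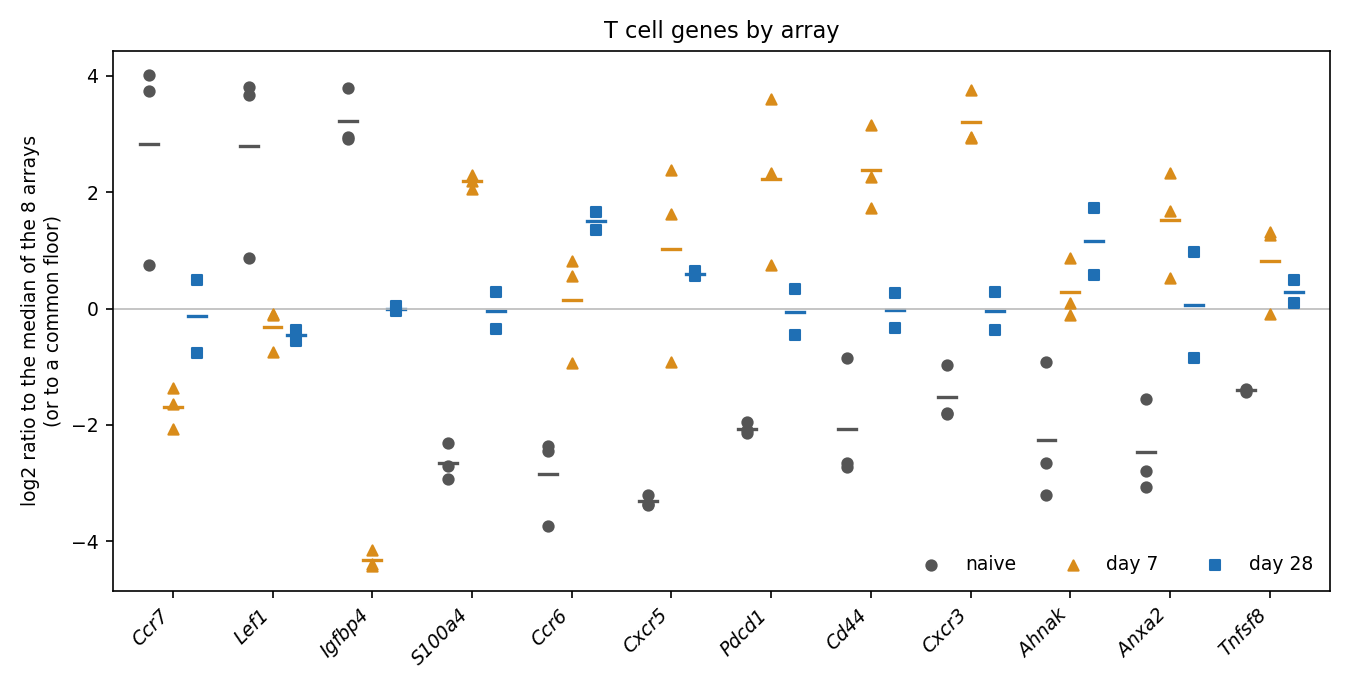
Log2 ratio (vertical axis) of 12 T cell genes, with points for single arrays and bars for group means of naive (n = 3), day 7 (n = 3) and day 28 (n = 2). Igfbp4 is shown by probe set 1423756_s_at. In S100a4, Cxcr3, Cd44, Pdcd1, Ccr7 and Igfbp4 both day 28 arrays lie between the naive and the day 7 arrays.

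The 1 call among genes of the other helper lineages was Ccr6, already counted above. Of 19 Th1, Th2 and Th17 genes on the array, 15 were tested, and Ccr6 was higher and 0 were lower. Of the 19, 7 lay above all naive arrays (36.8%), against 6.88% of all genes. Il4, the Th2 cytokine that follicular helper cells also make, read -0.70, -0.69 and -0.76 in naive samples, between 2.21 and 5.13 at day 7 and -0.61 and -0.20 at day 28, so that its day 28 difference was only 0.31. Rora, a factor of Th17 cells, read -0.93, -1.27 and -1.38 against 0.43 and -0.62, while its other tested probe set differed by -0.02. Of 12 regulatory T cell genes on the array, 10 were tested and 0 called by limma (2 higher and 0 lower at an unadjusted p under 0.05). Foxp3 read -0.24, 0.85 and 0.43 against -1.13 and 0.21 and overlapped, and Ctla4, an inhibitory receptor of activated and regulatory cells, read -0.87, -1.40 and -2.20 against 0.15 and -0.17. Of 15 NK cell genes, 12 were tested and 0 called by limma (1 higher and 0 lower at an unadjusted p under 0.05), with a median difference of 0.07.

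The T cell genes and the genes of B cells and class II were also counted on each day 28 array. The T cell lists held 117 genes on the array that stood in no list of another cell type. Of the 104 tested, 2 were higher and 0 lower. Both day 28 arrays lay above all naive arrays in 23 of the 117 (19.7%) and below them in 7 (5.98%), where all genes on the array gave 6.88% above and 11% below. In the 23 genes above, replicate 1 was the higher day 28 array in 11, and the medians of the difference from naive were 1.64 on replicate 1 and 1.5 on replicate 2. The B cell and class II lists held 79 genes in no T cell list, of which 70 were tested, 23 were higher and 0 lower, and 46 (58.2%) lay above all naive arrays. In those 46, replicate 1 was the higher array in 40, and the medians were 4.23 on replicate 1 and 2.87 on replicate 2. Among all 853 genes above all naive arrays, replicate 1 was the higher array in 480 (56.3%). The difference between these shares was not tested, nor was the part of the lower Gapdh and beta-actin ratios of replicate 1. At day 7 the same 46 genes had a median difference from naive of 0.22 and the 23 T cell genes of 2.82, and at day 28 these medians were 3.65 and 1.59. The genes were picked by their day 28 values, so these medians describe the groups and test nothing.

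**Figure D4:**
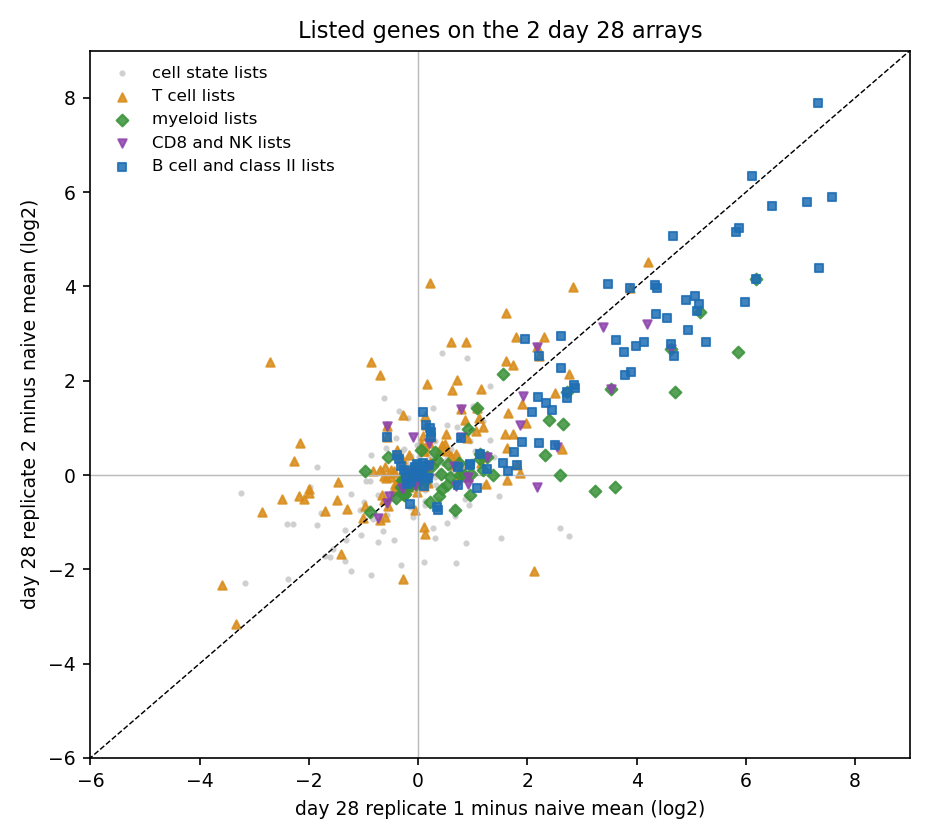
Difference from the naive mean (log2) on day 28 replicate 1 (horizontal axis) and replicate 2 (vertical axis) for the listed genes on the array, each gene drawn once per class of list, with the dashed line marking equal values. B cell and class II genes reach the upper right, mostly below the dashed line (replicate 1 higher), while T cell genes spread about it.

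**Figure D5:**
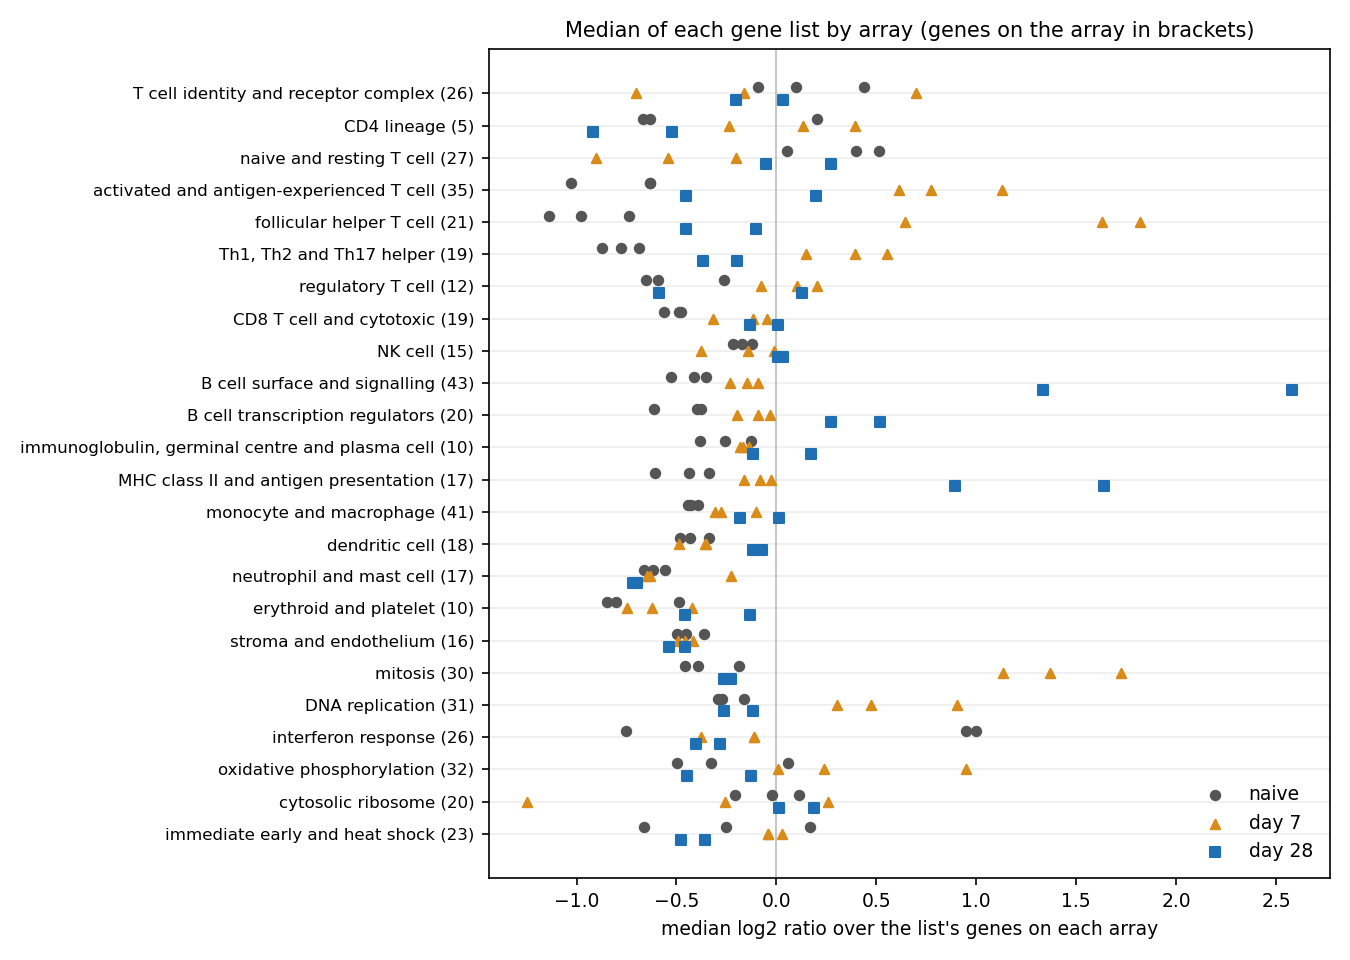
Median log2 ratio (horizontal axis) over the genes of each of the 24 lists on each naive, day 7 and day 28 array, with the number of genes on the array in brackets. The B cell surface list stands at 2.58 and 1.33 on the day 28 arrays and between -0.53 and -0.35 on the naive arrays, while the follicular helper and mitosis lists are highest at day 7.

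A few genes called belonged to no list or had probe sets that disagreed. Gga2, an adaptor of transport from the Golgi, read 0.19, 0.72 and -0.25 in naive samples and 4.56 and 3.33 at day 28, a rise of 3.72 ± 0.46 (limma adjusted p = 0.0241). Lyl1, a basic helix-loop-helix factor of blood cells, read -0.73, -0.45 and -0.45 against 2.25 and 2.11, a rise of 2.72 ± 0.29 (limma adjusted p = 0.0136 without the filter). Both were near their naive values at day 7, with differences of -0.59 and 0.20. Scd1, a fatty acid desaturase, rose by 5.95 on probe set 1415964_at (limma adjusted p = 0.00428), at 5.85 and 5.47 on the day 28 arrays, while its representing probe set differed by -0.20. Slc9a3r1, a scaffold beneath the plasma membrane, was the 1 gene lower by its representing probe set, of all genes tested (0.0128%). It read 1.96, 1.96 and 2.20 in naive samples and -0.76 and -0.43 at day 28, with day 7 values from -0.62 to 0.04, and fell by 2.63 ± 0.33 (limma adjusted p = 0.0241). Its other probe sets read -6.03 and 1.88, and -4.37 and 1.58, on the day 28 arrays and gave no single direction. Dda1 and Tspo, named after their values were seen, fell by 3.14 and 2.77 on probe sets 1434281_at and 1456251_x_at (limma adjusted p = 0.0162 and 0.0149). The probe sets that represent these genes differed by -0.27 and -1.22 without passing. The other 3 probe sets called, 2 higher and 1 lower, carry no single gene symbol.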

How the data were processed

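Affymetrix values of 8 samples were used. The deposited value is a linear ratio, and GCRMA, without a version, stands in the submitters' processing notes. How it was scaled is not given in the sources used here and was inferred, since 47.9% of probe sets have a median of 1 (within 0.0015) over the 8 arrays. No level, build or depth is given, and the number of arrays limits the precision. Log2 ratios were fitted with limma 3.58.1 in R 4.3.3, with 1 mean per group over the 8 arrays, for the 57.6% of probe sets whose ratio reached 1 on 2 or more arrays. The moderated tests were two-sided and p-values were adjusted (Benjamini-Hochberg) over all 13042 probe sets. The fit was tested on simulated data. Simulated log2 rises of 2 were called in 18% of cases and rises of 4 in 60%, with 5 false calls. For falls of 2 and 4 the shares were 20% and 66%. Changes of these sizes can thus miss the threshold. A gene is represented by the kept probe set of highest median ratio, then of most specific suffix, then of lowest number. Of the probe sets, 20380 carried 1 symbol, 691 several and 1555 none, and 20351 matched RefSeq. The members, the lists and the rule for named genes were chosen with earlier results of these data known. The rule names genes that passed without overlap, list members that passed, up to 6 members without overlap per T cell, CD8 or myeloid list, and 31 fixed markers. Other list members named were chosen after their values were seen. Alternatives covered the filter, normalization, arrays in the fit, spike-in term, replicate block, variance, threshold, probe sets per gene and each array left out. Counts use genes on the array or genes tested, as stated.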

Additional observations from a re-analysis of the deposited data

How the results depend on the processing

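All 42 differences called kept their sign in each alternative in which they were measured, with median absolute differences of 3.44 to 4.37, but the counts moved. The sign could not change where only the filter, arrays, variance or threshold changed, since the naive and day 28 arrays did not overlap. From 35 higher probe sets, 20 passed with a median ratio of 1 required, 17 with trended and robust variance and 13 at an adjusted p under 0.01. Lower probe sets, 7 as reported, came to 4 after quantile normalization, 2 with trended and robust variance and 0 at an adjusted p under 0.01. Limma called 0 higher and 0 lower on the naive and day 28 arrays alone (613 at an unadjusted p under 0.05) and likewise on the arrays of high spike-in signal alone (1220). With 1 array left out in turn, higher calls ranged from 2 to 47 and lower from 0 to 10, and 1 of the 30 named genes called passed each time.

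With the replicate number as a replicate block, 9 probe sets were higher and 0 lower with limma (801 at an unadjusted p under 0.05). The labels do not pair the arrays by number.

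With the most variable probe set representing a gene, 3 genes were lower in place of 1. Scd1 reversed to 2.87 (limma adjusted p = 0.0165) when its probe sets were averaged, since they disagree. The median of the B cell surface list was 2.44 with probe sets averaged and 2.53 to 3.48 with an array left out. That of class II genes was 1.63 to 2.61. That of CD8 genes was 0.59 after quantile normalization and 0.19 to 0.69 with an array left out. That of monocyte genes was 0.30 on the high spike-in arrays and 0.0068 to 0.34, of naive and resting genes -0.39 to -0.0093, and of follicular helper genes 0.11 to 0.52. With an array left out, the lowest value of the B cell, class II, CD8 and monocyte lists came without day 28 replicate 1. Of 1501 other values of named genes, 11 not called changed sign.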

Other observations

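Genes of dividing cells differed less from naive at day 28 than at day 7 by their medians. Of 30 mitosis genes on the array, 7 lay above all naive arrays (23.3%) and 2 below, where all genes gave 6.88% and 11%. Of the 30, 29 were tested and 0 were called by limma (2 higher and 1 lower at an unadjusted p under 0.05), with a median difference of 0.07 at day 28 and 1.67 at day 7. The proliferation marker Mki67 read -1.63, -2.71 and -1.34 in naive samples, between 1.34 and 1.94 at day 7 and -0.99 and 0.58 at day 28, and the mitotic kinase Cdk1 -0.92, -0.67 and -1.04 in naive samples and -0.16 and 0.14 at day 28. Both lay above all naive arrays at day 28, by 1.69 and 0.87, without passing. The 31 DNA replication genes had medians of 0.09 at day 28 and 1.08 at day 7, with 0 called by limma at day 28 (0 higher and 1 lower at an unadjusted p under 0.05).

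The interferon response list differed among the naive arrays themselves. Its median over 26 genes was 1.0, 0.95 and -0.75 in naive samples and -0.40 and -0.28 at day 28, so that the naive arrays lay on either side of the day 28 ones. Irf7, a regulator of interferon genes, read 1.11, 3.54 and 0.11 in naive samples and 0.24 and -0.25 at day 28. Of the 24 genes tested, 0 were called by limma (0 higher and 2 lower at an unadjusted p under 0.05), and Oas2 and Oasl1, antiviral nucleotide synthetase family genes, lay below all naive arrays by 1.46 and 1.35 on the log2 scale. Of the 26 genes, 3 lay below all naive arrays (11.5%) and 0 above. The share below was close to the 11% of all genes on the array. Medians of the oxidative phosphorylation, cytosolic ribosome and immediate early and heat shock lists were -0.01, 0.11 and -0.08.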
